A study of Gallus gallus with 8 samples.

Results

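The myosin heavy chain genes of engineered chick muscle tissues were examined in 8 members, taken by name from the 17775 genes of the deposited count table. They were *MYH1A*, *MYH1B*, *MYH1C*, *MYH1D*, *MYH1E*, *MYH1F*, *MYH1G*, and *MYH7*. Both groups of tissues held primary chick myoblasts from thigh muscle of E10 embryos, which were grown to confluence on crosslinked gelatin hydrogels and then given low-serum medium to fuse into myotubes, with no motor neurons added. Total RNA was sequenced from 5 tissues after 7 days of differentiation (week 1, tissues 1-1 to 1-5) and from 3 tissues after 21 days (week 3, tissues 3-1 to 3-3). The comparison addressed how gene expression differed between the culture times. The sources used here do not say whether the tissues came from separate myoblast harvests, so the p-values measure the spread between these tissues, and harvest and week cannot be told apart.

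Myosin heavy chain is the motor subunit of the sarcomere, which assembles into the thick filament and pulls on actin. Vertebrate skeletal muscle carries several fast myosin heavy chain genes in a tandem cluster, and the set in use shifts with developmental stage and fiber type. In birds, embryonic, neonatal, and adult fast isoforms succeed one another during growth, and *MYH1G* is described in the study as the chick isoform of fast type IIx fibers. *MYH7* lies elsewhere, encodes the slow and cardiac isoform in mammals, and carries an atrial myosin heavy chain synonym in the chick RefSeq annotation.

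All 7 *MYH1* genes lie on the minus strand of chromosome 18 (galGal6), in a cluster from 376311 to 662694 that holds no other listed gene. In order of position, *MYH1D* spans 376311 to 398843, *MYH1F* 407275 to 424204, *MYH1A* 458826 to 477173, and *MYH1B* 499232 to 517535. They are followed by *MYH1E* from 564255 to 586933, *MYH1C* from 609685 to 626956, and *MYH1G* from 645073 to 662694. The deposited tables list *MYH1G* only as ENSGALG00000028612. It was placed as the 1 protein-coding gene between *MYH1C* and *SCO1* (687325 to 694324), and the RefSeq annotation of another assembly (GRCg7b) has *MYH1G* in that place and the cluster in the same order. Gaps between neighboring members were 8431 to 46719 bp. *MYH7* lies on the minus strand of chromosome 19, from 56925 to 70996.

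Total estimated counts were 14368710 to 16545497 at week 1 and 15447904 to 18902561 at week 3. Tissue 1-1 stood apart from the other tissues of week 1, with a mean chi-square of 40.6 to 50.2 per gene against them, whereas the others differed among themselves by 5.39 to 12.1. The week 3 tissues differed by 2.67 to 3.68. They were kept as 3 tissues because the labels name 3, and these values do not show whether their spread is biological or technical. Skeletal muscle identity rested on 4 matched markers of 7 (*DES*, *MYOD1*, *MYOG*, and *ACTA1*), which summed to 7817 to 11496 CPM (counts scaled to the total of the tissue) at week 1 and 7385 to 7538 at week 3, with *MYOD1* and *ACTA1* lower. The 7 fibroblast markers summed to 20516 to 30193 and then 22378 to 23188 CPM, with 4 of 7 lower at week 3. By the same test, described below, 11.5% of all genes were higher and 12% lower. The 5 smooth muscle markers summed to 752 to 1114 and then 3361 to 3385, with 2 higher and 1 lower. The 2 higher were *ACTA2* (467 to 695 and then 2507 to 2529 CPM) and *TAGLN* (80.8 to 171 and then 672 to 686 CPM). *SMTN* was lower. *CNN1* and the smooth muscle myosin gene *MYH11*, at 1.67 to 4.66 CPM over all tissues, were not called. The 4 matched heart muscle markers summed to 3696 to 5988 and then 4954 to 4996 CPM, with none of the 3 tested called. Most of this sum was *TNNT2* (1883 to 2551 CPM over all tissues) and *MYH15* (1806 to 3423 CPM), itself a sarcomeric myosin heavy chain gene. The defining cardiac factor *NKX2-5* had at most 5 counts in any tissue. Markers of endothelium, leukocytes, and neurons or Schwann cells summed to at most 76.9 CPM in any tissue. Of those tested, 1 of 3, 3 of 4, and 1 of 3 were lower at week 3, and none was higher. The part of these cells in the results was not tested, and in whole tissues fewer myotubes and less RNA per myotube cannot be told apart.

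The weeks differed in 5 of the 8 members: *MYH1B*, *MYH1C*, *MYH1G*, and *MYH7* rose, and *MYH1D*, which took most of the counts, fell. Genes were called with the quasi-likelihood test of edgeR where the p, adjusted by Benjamini and Hochberg's method over 14311 genes, was below 0.05. That held for 23.5% of all genes, 11.5% higher and 12% lower at week 3. SE is the standard error of the log2 estimate. The median log2 fold change, week 3 over week 1, was 0.21 for the members and −0.0065 for all genes tested. Under the study's definition of differential expression, which sets a raw p of 0.05 and a 1.5-fold difference as its limits, *MYH1B*, *MYH1G*, and *MYH7* passed, beside 14.6% of all genes (7.22% higher and 7.39% lower). In expression level, the weeks did not overlap for *MYH1B*, *MYH1C*, *MYH1D*, *MYH1G*, and *MYH7*, as for 28.6% of the 15394 genes with such values (15.6% higher and 13% lower). Levels of single tissues are given in FPKM-UQ, which in these tables is the estimated count, raised by 1 and scaled by a factor specific to the tissue. Gene length does not enter it, so a level is compared only between tissues and not between genes.

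**Figure D1:**
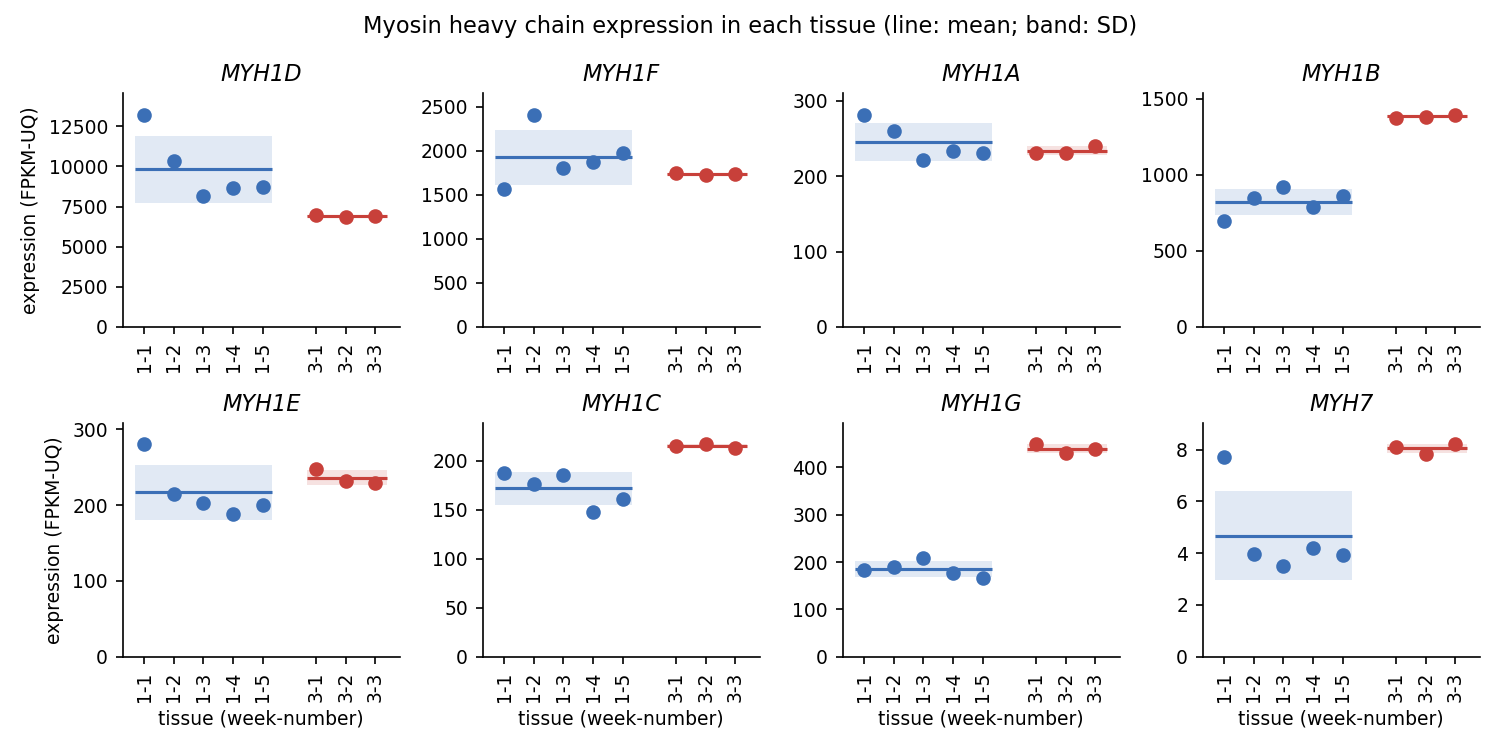
Expression of each member (FPKM-UQ, linear axes from 0, a scale of its own per gene) in the 5 tissues of week 1 (blue) and the 3 of week 3 (red), with the mean as a line and the SD as a band. *MYH1G* and *MYH1B* sit higher in every week 3 tissue, *MYH1D* sits lower, and tissue 1-1 is far from the rest for *MYH1D*, *MYH1E*, and *MYH7*.

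*MYH1G* showed the largest change of the family. Its expression was 182, 190, 209, 176, and 165 FPKM-UQ in tissues 1-1 to 1-5, and 449, 431, and 439 FPKM-UQ in tissues 3-1 to 3-3. Every week 3 tissue was thus far above the highest week 1 tissue. The mean rose from 185 ± 16.5 FPKM-UQ (SD, n = 5) to 440 ± 9.15 FPKM-UQ (SD, n = 3), a ratio of 2.38. The log2 fold change was 1.24 (SE 0.08, edgeR adjusted p = 1.54e-06), at rank 21 of all genes tested by p.

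*MYH1B* also rose. It was at 698, 845, 918, 786, and 863 FPKM-UQ at week 1, and at 1376, 1378, and 1394 FPKM-UQ at week 3. The weeks did not overlap, and the tissues of week 3 lay close together. The mean went from 822 ± 83.9 (SD, n = 5) to 1383 ± 9.87 FPKM-UQ (SD, n = 3), with a log2 fold change of 0.74 (SE 0.08, edgeR adjusted p = 8.92e-05). *MYH1B* and *MYH1G* passed the test under every alternative run.

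*MYH1C*, the neighbor of *MYH1G* in the cluster, rose by less. Its values were 188, 176, 185, 148, and 161 FPKM-UQ at week 1, and 214, 217, and 213 FPKM-UQ at week 3. The weeks did not overlap, with means of 172 ± 16.8 (SD, n = 5) and 215 ± 1.71 FPKM-UQ (SD, n = 3). The log2 fold change was 0.31 (SE 0.08, edgeR adjusted p = 0.0195). This call was lost without any 1 of the week 3 tissues, at an adjusted p of 0.0645 to 0.0783 in the same edgeR test.

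*MYH1D*, at the other end of the cluster, fell. It was at 13222, 10341, 8149, 8680, and 8714 FPKM-UQ at week 1, and at 6987, 6873, and 6933 FPKM-UQ at week 3. All week 3 tissues were below the lowest week 1 tissue, and tissue 1-1 was the highest by a wide margin. The mean went from 9821 ± 2071 (SD, n = 5) to 6931 ± 57.0 FPKM-UQ (SD, n = 3), a ratio of 0.706, with a log2 fold change of −0.52 (SE 0.14, edgeR adjusted p = 0.0213). Without tissue 1-1 the log2 fold change was −0.38 (edgeR adjusted p = 3.56e-05). Without any 1 of the week 3 tissues the adjusted p was 0.075 to 0.0829 in that test.

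*MYH1F*, *MYH1A*, and *MYH1E* did not pass the test, and the weeks overlapped for each. *MYH1F* was at 1560, 2408, 1807, 1867, and 1975 FPKM-UQ at week 1, and at 1746, 1722, and 1741 FPKM-UQ at week 3. Its highest and lowest tissues were both of week 1, and the log2 fold change was −0.16 (SE 0.11, edgeR adjusted p = 0.334). *MYH1A* was at 281, 260, 221, 233, and 231 FPKM-UQ and then at 231, 230, and 240 FPKM-UQ. Its log2 fold change was −0.08 (SE 0.08, edgeR adjusted p = 0.519), and its week 3 tissues lay inside the range of week 1. *MYH1E* was at 280, 214, 202, 188, and 200 FPKM-UQ and then at 247, 232, and 230 FPKM-UQ. Only tissue 1-1 of week 1 exceeded the week 3 tissues, and the log2 fold change was 0.11 (SE 0.12, edgeR adjusted p = 0.549). Without tissue 1-1, *MYH1E* rose by 0.22 (adjusted p = 0.00234) and *MYH1F* fell by 0.23 (adjusted p = 0.014) on the log2 scale in edgeR's quasi-likelihood test, and 7 of the 8 members passed, as did 5498 of all 14237 genes tested.

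*MYH7* had few reads, with 54 to 117 counts per tissue at week 1 and 123 to 156 at week 3. Its expression was 7.71, 3.97, 3.51, 4.21, and 3.91 FPKM-UQ at week 1, and 8.10, 7.84, and 8.21 FPKM-UQ at week 3. Tissue 1-1 reached nearly the level of week 3, although the weeks did not overlap. The log2 fold change was 0.78 (SE 0.24, edgeR adjusted p = 0.0337). It was 1.05 without tissue 1-1, and the call was lost without any 1 of the other 7 tissues.

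**Figure D2:**
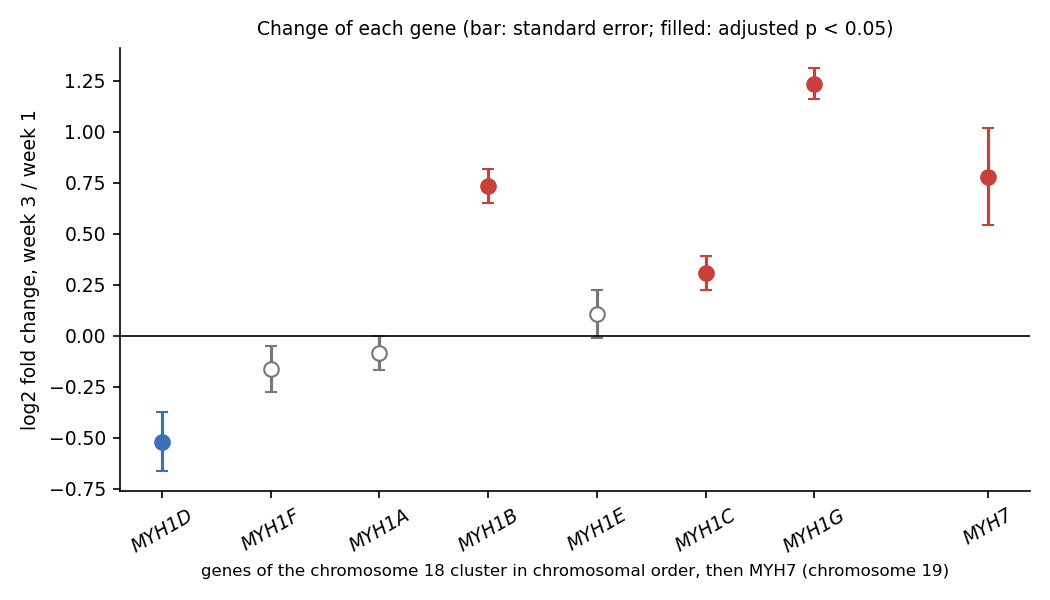
Log2 fold change, week 3 over week 1, of the 7 cluster genes in chromosomal order and of *MYH7* (edgeR, 8 tissues, bars are standard errors, filled symbols have an adjusted p below 0.05). The values go from −0.52 at *MYH1D* to 1.24 at *MYH1G*, the genes at the outer ends of the cluster, and *MYH1C* at 0.31 lies below both of the other cluster genes that rose.

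Along the chromosome, *MYH1D* and *MYH1G*, which changed most in opposite directions, occupied the ends of the cluster. The genes between them did not follow a strict order, since *MYH1B* in the middle had a larger log2 fold change than *MYH1E* and *MYH1C* beyond it. The ratio of *MYH1D* to *MYH1G* counts went from 53.6 ± 12.2 (SD, n = 5) to 15.8 ± 0.199 (SD, n = 3). This pair was chosen after the changes of both genes had been seen, so the ratio restates them and is no further test. *MYH1G* and its neighbor *MYH1C* had nearly equal counts at week 1, a ratio of 1.08 ± 0.0866 (SD, n = 5), and at week 3 the ratio was 2.05 ± 0.0536 (SD, n = 3).

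To describe composition, each member's estimated count was divided by the summed count of the 8 members in the same tissue. These are shares of reads, not of transcripts or protein, because longer transcripts give more reads. The summed family took 1.71, 1.38, 1.17, 1.16, and 1.20% of all counts at week 1 and 1.15, 1.14, and 1.14% at week 3. The weeks did not overlap in this sum, but the lowest week 1 tissues were close to week 3. The log2 ratio of the means was −0.21, and −0.10 without tissue 1-1. The family was also set against 4 other sarcomere genes (*ACTA1*, *ACTC1*, *DES*, and *ACTN2*), with *TTN* and *NEB* sought but not listed. Of this reference, *ACTA1* and *ACTN2* fell, with log2 fold changes of −0.84 and −0.64 (edgeR adjusted p = 0.0303 and 0.000252). *DES* was at 0.03 (edgeR adjusted p = 0.813). The change of *ACTC1* is not given here, so the part of each gene in the sum cannot be read from these values. Against the summed counts of the 4 genes the direction turned, from a ratio of 0.606 ± 0.116 (SD, n = 5) to one of 0.724 ± 0.00423 (SD, n = 3). The weeks overlapped only through tissue 1-1 at 0.812, the other week 1 tissues being at 0.536 to 0.578, and the log2 ratio was 0.257 with tissue 1-1 and 0.384 without it.

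*MYH1D* was the most abundant member by count in all 8 tissues. Its share was 80.5, 71.6, 69.7, 71.8, and 70.8% at week 1, and 62.1, 62.0, and 61.9% at week 3. Every week 3 tissue was below every week 1 tissue, and the mean fell from 72.9 ± 4.35% (SD, n = 5) to 62.0 ± 0.0737% (SD, n = 3), with p = 0.0179 in an exact two-sided permutation test. That is the smallest p the 56 splits of 8 tissues into 5 and 3 allow, and the 8 shares sum to 100% in a tissue, so their tests are not independent and were not adjusted.

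*MYH1B* and *MYH1G* took larger shares at week 3. The share of *MYH1B* was 4.25, 5.85, 7.85, 6.50, and 7.01% at week 1, and 12.2, 12.4, and 12.4% at week 3. The share of *MYH1G* was 1.11, 1.32, 1.79, 1.46, and 1.34%, and then 3.99, 3.88, and 3.92%. For both genes all week 3 tissues were above all week 1 tissues, with mean ratios of 1.97 for *MYH1B* and 2.80 for *MYH1G* (exact two-sided permutation test, p = 0.0179 each). *MYH1G* ranked 5 to 7 by count in the week 1 tissues and 4 in each week 3 tissue.

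*MYH1F* ranked below *MYH1D* and above *MYH1B* in every tissue. Its share was 9.50% in tissue 1-1 and 15.4 to 16.7% in the other week 1 tissues, against 15.5% in each week 3 tissue, and did not pass (p = 0.839, exact two-sided permutation test). *MYH1D*, *MYH1F*, and *MYH1B* together held 93.8 ± 0.508% of the family counts at week 1 (SD, n = 5) and 89.9 ± 0.0763% at week 3 (SD, n = 3). Below them at week 1, the ranges of neighbors in the order overlapped across tissues. The shares were 1.71 to 1.93% for *MYH1A*, 1.48 to 1.73% for *MYH1E*, 1.11 to 1.79% for *MYH1G*, and 1.14 to 1.58% for *MYH1C*. Within each week 1 tissue, however, *MYH1A* ranked 4 by count, and only *MYH1E*, *MYH1G*, and *MYH1C* changed places. At week 3, *MYH1E* (2.05 to 2.19%) and *MYH1A* (2.05 to 2.15%) overlapped, and *MYH1C* (1.90 to 1.95%) was lower than both. *MYH7* was last in every tissue, with 0.0337 ± 0.00766% (SD, n = 5) and then 0.0714 ± 0.00133% (SD, n = 3).

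**Figure D3:**
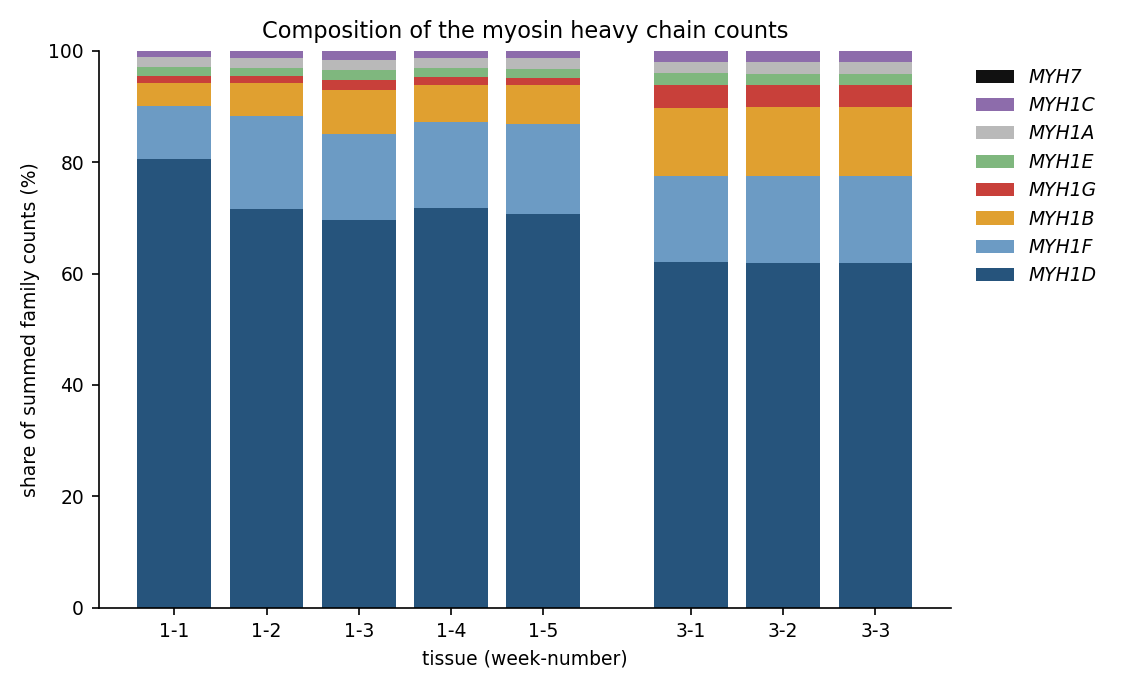
Share of each member in the summed counts of the 8 members (%, stacked bars, 1 bar per tissue). The *MYH1D* segment is 69.7 to 80.5% at week 1 and 61.9 to 62.1% at week 3, the *MYH1B* and *MYH1G* segments are wider in all week 3 tissues, and *MYH7* is too small to be seen.

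A share also moves when another member of the sum moves, and *MYH1D* held most of it. The shares of *MYH1A*, *MYH1C*, *MYH1E*, and *MYH7* were each higher at week 3 with no overlap (exact two-sided permutation test, p = 0.0179 each). Among the 7 members other than *MYH1D*, a choice made after the shares had been seen, *MYH1B* went from 23.1 ± 2.02% (SD, n = 5) to 32.5 ± 0.272% (SD, n = 3) and *MYH1G* from 5.20 ± 0.597% (SD, n = 5) to 10.3 ± 0.156% (SD, n = 3), each with p = 0.0179 in the exact two-sided permutation test. In that sum *MYH1F* went from 53.7 ± 3.87% (SD, n = 5) to 40.8 ± 0.0252% (SD, n = 3), with no overlap (exact two-sided permutation test, p = 0.0179). *MYH1A* and *MYH1E* turned to lower mean shares at week 3, and those 2 genes, *MYH1C*, and *MYH7* did not pass (exact two-sided permutation test, p = 0.0714 to 0.768).

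The week 3 tissues were close to each other in composition. Pairs of week 3 tissues had chi-square values of 4.42, 12.6, and 19.99 over the 8 members on 7 degrees of freedom, against 85.2 to 7864 for pairs of week 1 tissues, of which those with tissue 1-1 had 5310 to 7864. The median coefficient of variation over 1812 well expressed genes (mean of at least 100 FPKM-UQ) was 8.42% at week 1, 5.19% at week 1 without tissue 1-1, and 2.56% at week 3. The coefficient of *MYH1D* was 21.1% at week 1, 10.6% at week 1 without tissue 1-1, and 0.823% at week 3. With the week 3 tissues summed into 1 library, added after the data had been seen, only *MYH1B* (log2 fold change 0.74, adjusted p = 0.029) and *MYH1G* (1.24, adjusted p = 0.00262) of the 8 members passed edgeR's quasi-likelihood test, with 522 of all 15038 genes.

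Reads that match several similar genes can make the split between them uncertain. Estimated counts with a fractional part, a sign that reads were divided in the counting, occurred in 8 of 8 tissues for *MYH1A*, *MYH1B*, *MYH1C*, and *MYH1E*, in 7 of 8 for *MYH1F* and *MYH1G*, and in 0 of 8 for *MYH7*. Outside the cluster they occurred in 8 of 8 tissues for *SCO1* and *MYH10*, in 2 of 8 for *MYH15*, and in 0 of 8 for *MYH9* and *MYH7B*. The counts of *MYH1D* are printed with no decimals, so a fraction could not be read. How the reads were divided is not given in the sources used here, and its part in the values of the members was not tested.

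**Figure D4:**
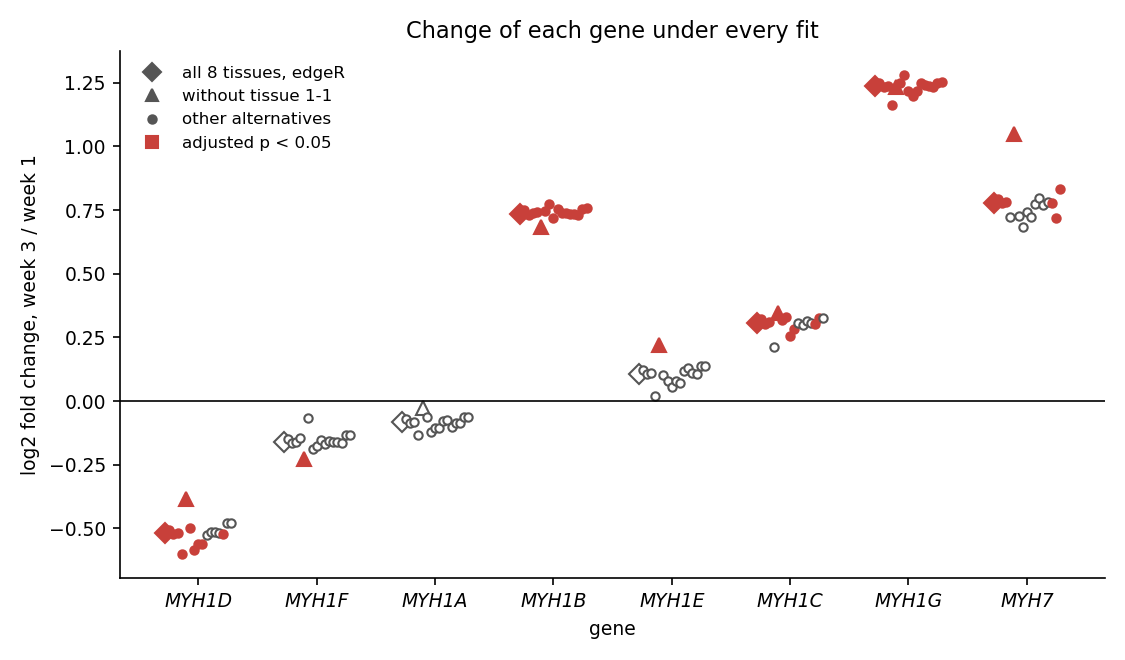
Log2 fold change of each member, week 3 over week 1, with all 8 tissues (diamond), without tissue 1-1 (triangle), and under the other alternatives (circles), where red marks an adjusted p below 0.05. *MYH1B* and *MYH1G* are red throughout, *MYH1E* and *MYH1F* only without tissue 1-1, and *MYH1A* nowhere.

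Of 13 other myosin heavy chain genes sought by symbol, 5 were listed and tested. Of these, 2 were higher and 1 lower, beside 11.5% and 12% of all genes. The nonmuscle myosin genes *MYH9* and *MYH10*, which serve the cytoskeleton, rose with log2 fold changes of 0.60 and 0.19 (edgeR adjusted p = 0.000213 and 0.0418). *MYH7B*, a slow myosin gene, fell by 0.42 (edgeR adjusted p = 0.0436), although the weeks overlapped (14.3 to 18.8 and then 10.5 to 14.9 FPKM-UQ). *MYH9* passed in all 16 alternative fits, whereas *MYH10* and *MYH7B* each passed in 5 of 16. With single tissues left out, *MYH10* passed only without tissue 1-1 or 1-4 (edgeR adjusted p up to 0.168 otherwise), and *MYH7B* only without tissue 1-1 or 3-3 (up to 0.186 otherwise). *MYH15*, named here after its values were seen because it was the other sarcomeric gene with many counts, carries a ventricular myosin heavy chain synonym in chick. It was at 3295 FPKM-UQ in tissue 1-1 and at 1847 to 2223 in the other week 1 tissues, against 2398 to 2435 at week 3 (log2 fold change 0.08, edgeR adjusted p = 0.767).

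The partners of myosin in the thick filament moved in both directions. Of 16 tested light chain and thick filament genes, 4 were higher and 2 lower, beside 11.5% and 12% of all genes. Their median log2 fold change was 0.05. The regulatory light chain *MYL2* and the atrial and embryonic light chain *MYL4* rose most, by 2.22 and 2.11 (edgeR adjusted p = 0.000113 and 5.64e-05). *MYL2* was at 2.92 to 8.24 FPKM-UQ at week 1 and 19.8 to 23.2 at week 3, and *MYL4* at 6.42 to 14.4 and then 34.3 to 37.5. The light chain kinase *MYLK2* and the M-band gene *MYOM2* fell, with log2 fold changes of −0.50 and −0.33 (edgeR adjusted p = 0.0142 and 0.0352). *MYL2* and *MYL4* passed in all 16 alternative fits. The calls of *MYLK2* and *MYOM2* were lost without any 1 of the week 3 tissues (edgeR adjusted p = 0.0525 to 0.0625 and 0.0979 to 0.125), and that of *MYOM2* also without tissue 1-4 (0.0594). Without tissue 3-3, 2 genes of this list were higher, beside 1025 of all genes, against 1645 of all genes with all 8 tissues. The fast essential light chain *MYL1* was at 4935 to 5693 FPKM-UQ and then 5364 to 5534, with a log2 fold change of 0.07 (edgeR adjusted p = 0.545).

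Among 11 genes of myosin folding and assembly, 4 were higher and 1 lower, beside 11.5% and 12% of all genes. Their median log2 fold change was 0.07. The chaperone genes *CRYAB* and *HSPA8* rose by 0.35 and 0.30 (edgeR adjusted p = 0.0069 and 0.0293). *SMYD1*, a methyltransferase needed for thick filament assembly in zebrafish, fell by 0.31 (edgeR adjusted p = 0.00657). *CRYAB* and *SMYD1* passed with any single tissue left out, whereas *HSPA8* passed only without tissue 1-1 (edgeR adjusted p = 0.0599 to 0.103 otherwise). With single tissues left out, the number of higher genes in this list ranged from 1 to 5. It was 1 without tissue 1-3, 3-1, or 3-3, beside 1278, 1033, and 1025 of all genes. It was 5 without tissue 1-1, beside 2725 of all genes. With no tissue left out, 1645 of all genes were higher. With the week 3 tissues summed, the median log2 fold change of this list was 0.07. The myosin chaperone *UNC45B* had a log2 fold change of 0.07 (edgeR adjusted p = 0.713).

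Of 12 slow fiber genes tested, 4 were higher and 2 lower (median log2 fold change 0.06), beside 11.5% and 12% of all genes. Myoglobin (*MB*) rose by 3.61 (adjusted p = 9.08e-10) and the Z-disc gene *CSRP3* fell by 0.94 (adjusted p = 6.69e-06) on the log2 scale in edgeR's quasi-likelihood test. Of 10 fast fiber genes tested, 1 was higher and 3 lower (median −0.25), beside the same 11.5% and 12% of all genes. The fast troponin gene *TNNI2* rose by 0.30, and the Z-disc genes *MYOZ3* and *ACTN2* had log2 fold changes of −1.19 and −0.64 (edgeR adjusted p = 0.0426, 0.000302, and 0.000252). With single tissues left out, *TNNI2* passed only without tissue 1-1 or 1-2 (edgeR adjusted p = 0.0618 to 0.141 otherwise). *MYOZ3* and *ACTN2* passed throughout. In these fits, 2 to 6 fast fiber genes were lower. The number was 6 without tissue 1-1, beside 2773 of all genes. It was 2 without tissue 3-1, 3-2, or 3-3, beside 1148, 1091, and 1094 of all genes. Without any other tissue it was 3, beside 1410 to 1505 of all genes. With no tissue left out, 1722 of all genes were lower. The slow list holds *MYL2* and *MYH7B* as well, so it shares genes with the lists above. The fast list holds *ACTN2*, which also served above as a general sarcomere reference, so this gene is not particular to fast fibers.

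Of 26 tested transcriptional regulators of myosin heavy chain genes, 1 was higher and 12 were lower, beside 11.5% and 12% of all genes. Their median log2 fold change was −0.29. The myogenic factor *MYF5* and *SOX6*, a repressor of slow fiber genes in mouse and zebrafish, fell most. Their log2 fold changes were −3.08 and −1.15 (edgeR adjusted p = 0.000117 and 0.006). Both had few reads, with *MYF5* at 4.18 to 8.50 FPKM-UQ at week 1 and 0.442 to 1.34 at week 3. *SOX6* was at 4.26 to 5.30 and then 1.45 to 3.13 FPKM-UQ. The TEAD cofactor *VGLL3* rose by 0.51 (edgeR adjusted p = 0.00378). Without tissue 1-1, 3 regulators were higher and 14 lower, beside 2725 and 2773 of all genes. The number lower was 7 without tissue 3-2 and 8 without tissue 3-3, beside 1091 and 1094 of all genes. With all 8 tissues, 1645 of all genes were higher and 1722 lower. With the week 3 tissues summed, the median log2 fold change of the regulators was −0.28.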

How the data were processed

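For each gene, the authors deposited an estimated count with no normalization and a normalized signal named FPKM-UQ. STAR 2.7.3a, Partek, and galGal6 are named in the submitters' processing notes. Of the 142118 estimated counts below 100000, 80.97% were exactly whole, and the 82 larger ones carry no decimals. FPKM-UQ covers 15394 genes. Both kinds of value cover all 8 tissues.

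The counts, rounded to whole numbers, entered the quasi-likelihood test of edgeR 4.0.16 under R 4.3.3 after TMM scaling and removal of low genes by filterByExpr, which left 14311 genes over which p-values were adjusted by Benjamini and Hochberg's method. Each share was tested by exact two-sided permutation over 56 splits (numpy 2.4.6, pandas 2.3.3, Python 3.11.15). Intervals are SDs between tissues, and depth limits *MYH7* most. Members and gene lists were chosen with earlier results of these data known. Every member is named, and of each list the 2 largest rises and the 2 largest falls among genes passing, together with a few list genes chosen after their values were seen (*MYH15*, *MYL1*, and *UNC45B*). Lists were matched by exact symbol. For each member, the 2 genes of highest Pearson correlation in log2(FPKM-UQ + 1) were also named, among genes with a symbol and a mean of at least 1 FPKM-UQ.

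As alternatives, DESeq2 1.42.0, scaling by the upper quartile, other count filters, limma 3.58.1 on log2 FPKM-UQ (pseudocount 1 or 0.1), a replicate block, single tissues left out, and other sums were run. The edgeR steps were tested on simulated data.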

Additional observations from a re-analysis of the deposited data

Results flagged for a closer look

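Tissue 1-1 lay far from the other 4 tissues of week 1 in 4 of the 17 sets of values tested with Dixon's ratio, whose critical value for 5 samples is 0.71. Chance gives about 1 such set in 20. The share of *MYH1D* in the family counts was 80.5% in tissue 1-1 and 69.7 to 71.8% in the others. The share of *MYH1F* was 9.5% in tissue 1-1 and 15.4 to 16.7% in the others. Expression of *MYH1E* was 280 FPKM-UQ in tissue 1-1 against 188 to 214, and that of *MYH7* was 7.71 FPKM-UQ against 3.51 to 4.21. All 4 values come from 1 tissue, and shares of 1 tissue are not independent of each other.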

How the results depend on the processing

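The direction of each member's log2 fold change was the same under every alternative run, and *MYH1B* and *MYH1G* passed edgeR's quasi-likelihood test throughout. Of all genes, 3367 passed, against 522 with the week 3 tissues summed and 2119 to 5498 with single tissues left out (5498 without tissue 1-1, 2119 to 2181 without a week 3 tissue). Deviations of same-numbered tissues from the mean of their week correlated at 0.0107, −0.00266, and −0.0049. The week 3 tissues differed little, so these values cannot tell whether tissue numbers pair the tissues. With the replicate block in edgeR's test, 2073 genes passed, and *MYH1C* (adjusted p = 0.131) and *MYH7* (adjusted p = 0.107) did not. In limma on log2 FPKM-UQ, *MYH1D* had an adjusted p of 0.0549 with a pseudocount of 1 and 0.0767 with 0.1, and *MYH1C* 0.0512 with 0.1. With *MYH1D* out of the sum, the difference in share, week 3 minus week 1, was −1.43 percentage points for *MYH1A*, −0.599 for *MYH1E*, −12.8 for *MYH1F*, 0.207 for *MYH1C*, and 0.0558 for *MYH7*. With every member in the sum, this difference was 0.902 for *MYH1F* and 0.624 for *MYH1C* with all tissues. Leaving out single tissues in that full sum gave −0.378 to 1.42 for *MYH1F*, negative only without tissue 1-1. For *MYH1C* the same gave 0.586 to 0.696, with a p of 0.0571 (exact permutation test) without tissue 1-2, 1-4, or 1-5. The log2 ratio of the family sum was −0.21 against all counts (−0.253 to −0.102 with single tissues left out, nearest 0 without tissue 1-1) and 0.257 against sarcomere genes. Apart from what the sums share by construction, the causes were not tested. Shares per coding length were not run, as no transcript lengths were used here. Depth limits *MYH7*, with 54 counts in its lowest tissue.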

Other observations

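With *MYH7B* and *MYH15* added to the summed family counts, *MYH15* took 14.3 ± 1.92% at week 1 (SD, n = 5) and 17.7 ± 0.209% at week 3 (SD, n = 3), with no overlap. In expression level the weeks overlapped for *MYH15*, and it did not pass (log2 fold change 0.08, edgeR adjusted p = 0.767). Its share also moves when another member of the sum moves. In that sum *MYH1D* held 62.3 ± 2.92% (SD, n = 5) and then 50.9 ± 0.149% (SD, n = 3), and *MYH7B* held 0.106 ± 0.0217% (SD, n = 5) and then 0.0893 ± 0.0175% (SD, n = 3).

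The genes whose expression was most like that of each member were sought among 10542 genes over the 8 tissues, as a description. The points are the same 8 libraries for every gene, in 2 groups and with tissue 1-1 apart. *MYH1G* was nearest to *PISD* (Pearson's r = 0.996) and *GCLM* (0.992), and *MYH1B* to *POSTN* (0.995) and *SPSB1* (0.995), genes that were higher in all week 3 tissues. *MYH1D* was nearest to *NACA* (0.992) and *DAPP1* (0.991), which were lower in all week 3 tissues. *MYH7* was nearest to *FAT1* (0.993) and *DAAM2* (0.993), *MYH1C* to *COLEC11* (0.983) and *SLC6A17* (0.981), and *MYH1F* to *C2H8ORF22* (0.982) and *NDUFV2* (0.975). *MYH1E* was nearest to *PROM1* (0.979) and *FSHR* (0.975), and *MYH1A* to *GSK3B* (0.976) and *RAP1GAP2* (0.965).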
